A study of Mus musculus with 5 samples.

Results

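The desmosome genes considered here are 9 genes chosen by name, Dsg2, Dsg3, Dsc2, Dsc3, Dsp, Jup, Pkp1, Pkp2 and Pkp3. All 9 were listed in each of the 5 libraries, among 31053 genes in 4 libraries and 32285 in the other, or 32932 genes in the series as a whole. The data are single-cell RNA sequencing counts from the submandibular salivary gland of C57BL/6 mice, which the study describes as female, and from mouse salivary gland organoids (mSGOs) grown from dissociated gland cells in Matrigel. Each group was 1 library. Untreated mSGOs were collected on day 7 or day 11, and mSGOs irradiated with 7 Gy photons (Cs-137) or 7 Gy protons (the plateau of the beam) on day 5 were collected on day 7. The remaining library held cells of freshly isolated, non-irradiated gland. The labels give an age of 8 to 12 weeks for the donors of the day 7 and tissue libraries and no age for the 11-day library.

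All mSGOs were grown in WRY medium, which holds Wnt3a- and R-spondin1-conditioned medium, EGF, FGF2, insulin, dexamethasone and the kinase inhibitor Y27632, so every organoid group shares these agents and the tissue lacks them. Organoids came from 4 animals that were pooled in a library, so differences between animals are not visible. Per the labels, the animals behind the 11-day mSGOs were a separate batch and that library had a run of its own. Its matrix header also names software 7.0.0, against 3.0.1 for the others, and it lists 32285 genes against 31053. Day, batch and software therefore cannot be told apart in any comparison with the 11-day library. Organoids were dissociated with trypsin, and for each library 45000 cells negative for propidium iodide, a dye that enters dead cells, were sorted. With 1 library per group there is no replicate check and no test, and every interval below is a 95% interval that covers counting error only.

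Desmosomes are button-like junctions that hold epithelial cells together and tie the keratin filaments of neighbouring cells into one mechanical network. Their cadherins, the desmogleins (Dsg) and desmocollins (Dsc), bind across the gap between cells. Inside the cell, plakoglobin (Jup) and the plakophilins (Pkp) gather on the cadherin tails, and desmoplakin (Dsp) links this plaque to keratin. Dsg2, Dsc2 and Pkp2 are found in simple as well as stratified epithelia, whereas Dsg3, Dsc3 and Pkp1 are characteristic of stratified epithelia. Jup also takes part in adherens junctions, including those of endothelium. In the gland, ducts carry desmosomes, and basal duct cells have a keratin make-up close to that of stratified epithelium.

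In the GRCm38.p6 assembly (the mm10 build) the 4 cadherin genes lie within 644 kb of a single chromosome, Dsc2 and Dsc3 at one end and Dsg2 and Dsg3 at the other, whereas the 5 plaque genes are on 5 different chromosomes.

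Dsp lies at chr13:38151294-38198577, Jup at chr11:100368856-100397839, Pkp1 at chr1:135871394-135919207, Pkp2 at chr16:16213345-16272712 and Pkp3 at chr7:141078229-141090511, in the same assembly. Promoter windows were looked up for the plaque genes only. Of these, 2 had a window in the RefSeq table used here, the desmoplakin and plakoglobin genes. Dsp and Jup had the highest levels in control 7-day mSGOs. They differed from each other between barcode classes and in 1 endothelial-like cluster, as given below. Each window runs from 250 bases before to 50 bases after the annotated start, 5′ to 3′ on the gene's own strand, as the table gives it. For Jup this start lies inside the gene span given above. The windows are printed with the GC box letters GGGCGG, or their reverse complement, in capitals.
Dsp: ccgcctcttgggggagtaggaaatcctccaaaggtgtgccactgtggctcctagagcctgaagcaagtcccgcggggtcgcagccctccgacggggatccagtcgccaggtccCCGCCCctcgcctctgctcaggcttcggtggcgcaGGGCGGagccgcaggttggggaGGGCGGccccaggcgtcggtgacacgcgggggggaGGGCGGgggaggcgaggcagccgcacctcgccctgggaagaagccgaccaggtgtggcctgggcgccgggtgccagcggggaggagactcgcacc
Jup: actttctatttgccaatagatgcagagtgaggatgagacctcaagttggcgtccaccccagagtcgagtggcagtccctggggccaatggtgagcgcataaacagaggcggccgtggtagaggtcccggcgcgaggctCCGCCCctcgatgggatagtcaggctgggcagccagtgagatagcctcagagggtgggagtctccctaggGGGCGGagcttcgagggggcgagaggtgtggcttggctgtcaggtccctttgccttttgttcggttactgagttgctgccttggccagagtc
The Dsp window, chr13:38151044-38151343 on the plus strand, is 73.0% G and C and holds 4 GC boxes. The Jup window, chr11:100397741-100398040 on the minus strand, is 60.7% G and C and holds 2. At least 1 GC box was found in 35.7% of 32851 windows of the same length. The AP-1 letters TGANTCA, in 7.81% of windows, the Grainyhead-like letters AACCGGTT, in 0.146%, and the TATA letters TATAAA, in 13.6%, were searched on both strands and were not found in either window. These are letter matches only.

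The libraries differed in depth and in barcode quality. After filtering, 6494 barcodes remained for control, 16934 for photon and 15325 for proton 7-day mSGOs, 9484 for 11-day mSGOs and 1402 for tissue. They held 15837177, 27133168, 24759147, 32103093 and 5925403 UMIs (unique molecular identifiers, each marking 1 captured transcript). The median was 899 to 1064 UMIs per barcode in the 7-day libraries, 3026.5 in the 11-day library and 2378.5 in tissue. Malat1, a nuclear transcript found in nearly all cells, made up at least 1% of the UMIs of only 8.96% to 16.01% of 7-day barcodes, against 98.8% of 11-day barcodes and 11.3% of tissue barcodes. Any 2 libraries shared between 3 and 79 kept barcode sequences, at most 0.642% of the smaller library.

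Levels are given as CPM, the usual unit in which a gene's UMIs are scaled to a common library total, so that 1 CPM is 1 UMI in 1000000. The 3′ assay tags each transcript once near its end, so a level does not grow with transcript length, although capture can differ between genes. A summed level cannot tell fewer cells of a type from less RNA per cell. The 9 genes together reached 1326 CPM in control 7-day mSGOs, 1199 with photons, 1139.7 with protons, 1006 in 11-day mSGOs and 71.7 in tissue. Tissue therefore stood far below the 4 organoid libraries.

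Dsp, which anchors keratin filaments to the plaque, was the most abundant member in every library. Its level was 504 CPM in control, 462 with photons, 424 with protons, 372 at day 11 and 21.8 in tissue. Jup, the plaque protein shared with adherens junctions, was at 228, 184, 171, 107 and 17.7 CPM in the same order. The 7-day control was the highest of the 5 libraries for both genes, and none of the intervals of the 5 libraries overlapped for Dsp.

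The plakophilins, armadillo-repeat proteins that cluster desmosomal components, lay far apart from each other. Pkp1 was at 202 CPM in control, 191 with photons, 188 with protons, 104 at day 11 and 1.52 in tissue, where it rested on 9 UMIs. Pkp3, which is broadly expressed in epithelia, was at 54.7, 52.3, 52.7, 44.6 and 4.89 CPM. Pkp2, the plakophilin of simple epithelia and heart, was at 3.66, 3.17, 3.31, 13.3 and 2.53 CPM. It was thus highest at day 11, the other 4 libraries lying at or below 3.66 CPM with overlapping intervals.

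Among the desmogleins, Dsg3, the desmoglein of basal and lower stratified layers, was at 107 CPM in control, 92.3 with photons, 78.2 with protons and 78.2 at day 11, and no UMI of it was found in tissue. A count of 0 among 5925403 tissue UMIs allows up to 0.506 CPM. Dsg2, the widely expressed desmoglein, was at 17.4, 19.6, 19.8, 65.3 and 19.7 CPM. It was the only member whose tissue level lay within the range of the 7-day libraries, and it was highest at day 11.

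Of the desmocollins, Dsc2, the widely expressed member, was at 108 CPM in control, 87.5 with photons, 93.4 with protons, 111 at day 11 and 2.70 in tissue. Dsc3, the desmocollin of basal stratified layers, was at 101, 108, 109, 110.1 and 0.844 CPM, the last from 5 UMIs. Organoid levels of Dsc3 stayed within 101 to 110.1 CPM.

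**Figure D1:**
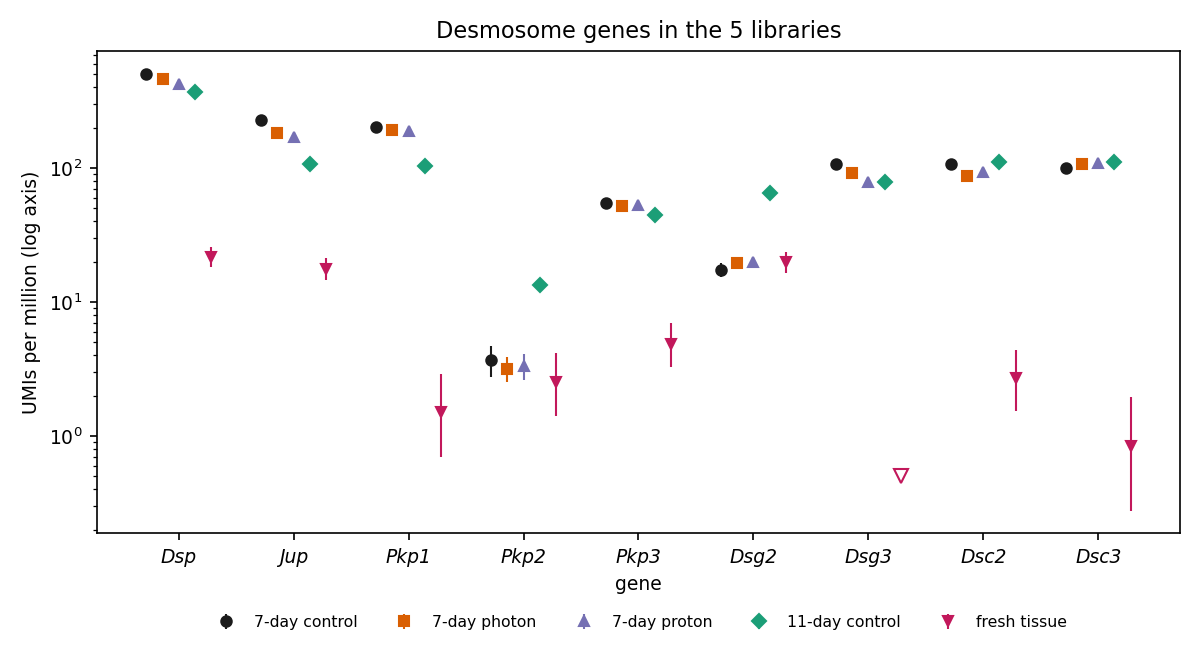
Level of each desmosome gene (x axis) in CPM on a log axis (y axis) in the 5 libraries, 1 point per library with its 95% counting interval; the open triangle marks the limit of 0.506 CPM allowed by 0 UMIs of Dsg3 in tissue. Tissue points lie far below the organoid points for 7 genes, whereas Dsg2 and Pkp2 in tissue lie beside the 7-day libraries.

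The order of the levels changed with the source. In control 7-day mSGOs it ran Dsp, Jup, Pkp1, Dsc2, Dsg3, Dsc3, Pkp3, Dsg2 and Pkp2, and the counting intervals of Dsc2 and Dsg3, and of Dsg3 and Dsc3, overlapped. In 11-day mSGOs Dsp was followed by Dsc2, Dsc3, Jup and Pkp1 at 111 to 104 CPM, each overlapping the next, and then by Dsg3, Dsg2, Pkp3 and Pkp2. In tissue Dsp, Dsg2 and Jup led with overlapping intervals, Pkp3 followed at 4.89 CPM, and the other 5 members were at 2.70 CPM or lower. As a share of all UMIs of the 9 genes, Dsp stayed between 30.4% and 38.5% in the 5 libraries, while Dsg2 took 1.31% in control 7-day mSGOs, 6.49% at day 11 and 27.5% in tissue.

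The first question was whether irradiation moved these genes by day 7. No member passed a log2 ratio of 0.5 in either direction with photons or protons, against 4.18% of 4354 tested genes higher and 2.3% lower with photons, and 4.69% of 4352 genes higher and 2.32% lower with protons. A gene counted as tested with at least 200 UMIs in the pair of libraries and at least 20 CPM in the higher one, which 7 of the 9 members met, all but Dsg2 and Pkp2. Of these 7, 6 lay below 0 in each comparison, with a median log2 ratio of -0.13 with photons and -0.20 with protons, where the median of all tested genes was 0.08 and 0.10. Both comparisons use the same control library. The absence of calls depended on the settings, since among barcodes of at least 2500 genes Jup was lower by 0.5 with photons, at -0.60, against 2.49% of 3339 genes, and 1 member with protons, against 3.10% of 3166. Under size factors set on the median of ratios 2 were lower with protons, against 3.82% of 4314 genes. With each barcode thinned to 500 UMIs Dsg3 was lower with protons, at -0.62, against 2.42% of 4264 genes.

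Jup was the member with the lowest photon ratio, -0.31 (-0.37 to -0.25), and its proton ratio was -0.41 (-0.48 to -0.35). Dsg3 was at -0.22 (-0.31 to -0.13) with photons and -0.45 (-0.55 to -0.36) with protons. Dsc2 was at -0.30 (-0.39 to -0.21) and -0.20 (-0.30 to -0.12). These are the shifts of the junction's linker and of a desmoglein and a desmocollin, all under the 0.5 mark. Dsp was at -0.13 (-0.17 to -0.08) and -0.25 (-0.29 to -0.21). Pkp1 and Pkp3 lay between -0.10 and -0.05 in both comparisons. Dsc3 alone of the tested members was above 0, at 0.10 (0.01 to 0.19) with photons and 0.11 (0.02 to 0.20) with protons, close to the median gene. Dsg2, at 0.16 and 0.18, and Pkp2, at -0.16 and -0.11, had intervals that held 0.

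The proton and photon libraries were also set against each other. No member passed 0.5 between them, where 0.755% of 4372 genes were higher and 0.801% lower with protons. Dsg3 had the largest proton-over-photon ratio of the 9 in size, -0.24 (-0.33 to -0.15), followed by Dsp at -0.12 and Jup at -0.10. Dsc2, at 0.09 (0.01 to 0.18), was the only member with an interval above 0. The ratios of Dsc3, Pkp1, Pkp2, Pkp3 and Dsg2 had intervals that held 0. In the Malat1-rich barcodes (1% or more of UMIs) the photon and proton ratios to control were -0.31 and -0.36 for Dsp, -0.36 and -0.37 for Pkp1, and -0.39 and -0.46 for Jup, each lower than over all barcodes. Dsc2, at -0.45 and -0.26, was also lower there, and its photon ratio was the lowest of the 9. Dsg3 was at -0.16 and -0.41 in those barcodes, above its values over all barcodes, and again no member passed 0.5.

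**Figure D2:**
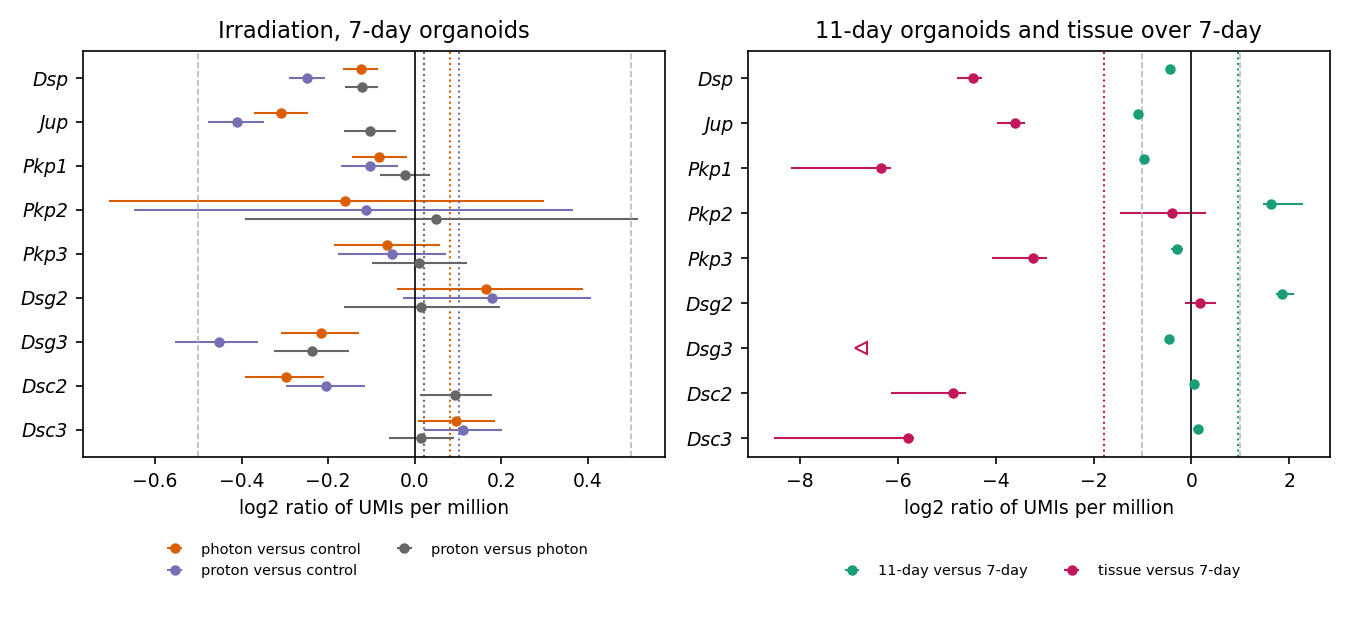
Log2 ratio of CPM (x axis) for each desmosome gene (y axis), left for the 3 comparisons of 7-day libraries and right for 11-day mSGOs and tissue over 7-day control mSGOs, with 95% counting intervals; dashed lines mark the fold threshold, dotted lines the median of all tested genes in the matching colour, and the open triangle a gene with 0 UMIs in tissue. On the left no point passes 0.5, and on the right Dsg2 and Pkp2 stand to the right of the other 7 genes.

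The second question was how the members differed between 11-day and 7-day mSGOs, libraries of different batches and software versions. Here Dsg2 was 3.61-fold higher at day 11, a log2 ratio of 1.85 (1.73 to 2.10), and Pkp2 was 3.07-fold higher, at 1.62 (1.47 to 2.29). Jup was lower by a log2 ratio of -1.09 (-1.16 to -1.02), and Pkp1 lay just short of the mark of 1 used across days, at -0.96 (-1.04 to -0.90). Of the 8 tested members, 1 was higher by at least 1 and 1 lower, against 48.8% of 6604 genes higher and 5.83% lower. Pkp2 is left out of that count because its level stayed under 20 CPM.

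The median tested gene was itself 0.96 higher at day 11, so the scaling sets much of this picture. Relative to the median gene, Dsg2 was at 0.89 and Pkp2 at 0.66, while the other 7 members lay below it, from -0.83 for Dsc3 to -2.05 for Jup. Dsp was at -0.43, Dsg3 at -0.45 and Pkp3 at -0.29 on the library-total scale, and Dsc2 and Dsc3 were at 0.05 and 0.13. With size factors set on the median of ratios no member was higher by 1 and 5 were lower, namely Dsp, Jup, Pkp1, Dsg3 and Pkp3, where 21.3% of 6194 genes were higher and 23.4% lower. With barcodes of at least 1% Malat1 in both libraries, 4 members were lower by 1, where 5.80% of 6643 genes were lower and 40.6% higher. These were Dsg3 at -1.19, Pkp1 at -1.18, Jup at -1.09 and Dsp at -1.001. Dsg2 and Pkp2 were higher by a log2 ratio of 1.37 and 1.34 in those barcodes.

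Fresh tissue was compared with 7-day mSGOs to place the organoids beside the gland. All 7 tested members were lower in tissue by a log2 ratio of more than 1, in a comparison where 78.3% of 4254 genes were lower and 5.17% higher. Their median was -4.88, against -1.78 for all tested genes. Of these 7, only Dsp reached the limit of 20 CPM in tissue, so the filter admitted the others through their 7-day level. It left out Dsg2 and Pkp2, so the count of 7 was largely set by the filter. Over all 9 members the median was -4.47. Dsg3 was at least 212-fold lower in tissue, taking 3 UMIs as the limit of its 0 count. Pkp1 was at -6.34 (-8.19 to -6.13) and Dsc3 at -5.79 (-8.53 to -5.68), the stratified-type members. Their tissue levels are near the pseudocount of 1 CPM, and with 0.1 CPM the ratios were -6.97 and -6.74. The intervals in brackets leave the pseudocount out, so these ratios sit near their edges. Dsc2 was at -4.88, Dsp at -4.47, Jup at -3.61 and Pkp3 at -3.24. Dsg2, at 0.18 (-0.14 to 0.50), and Pkp2, at -0.40 (-1.46 to 0.31), had intervals that held 0, both ratios lying above the median gene. In Malat1-rich barcodes, 158 of them in tissue, Dsg2 was higher in tissue by 1.28 (0.82 to 1.79), where 9.44% of 3866 genes were higher and 29.6% lower. Pkp2, under the 20 CPM floor with 11 and 32 UMIs, was at 1.43 (0.47 to 2.64), and the other 7 members remained lower, Jup by -1.91 and Dsp by -3.53.

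Against tissue, all 8 tested members were higher in 11-day mSGOs, where 90.5% of 6552 genes were higher and 2.87% lower. Only Dsp of these 8 reached 20 CPM in tissue. The others passed the filter through their 11-day level, so this count was largely set by the filter. Dsg2 had the smallest ratio of these 8, 1.68 (1.46 to 2.01), and Dsc3 at 5.91 and Pkp1 at 5.38 were among the largest, with Dsg3 at least 154-fold higher. The 2 genes that came closest between the sources were again Dsg2 and Pkp2, the latter at 2.02 (1.66 to 3.25). With size factors in place of library totals Dsg2 was at -0.82 and Pkp2 at -0.15 in this comparison, and 5 of the 9 members were higher by 1, where 19.1% of 4927 genes were higher and 26.8% lower. Among Malat1-rich barcodes 6 of the 9 were higher by 1, where 43.7% of 6875 genes were higher and 7.87% lower, and Dsg2 was at 0.09 (-0.32 to 0.54), Jup at 0.82 (0.41 to 1.28) and Pkp2 at -0.091 (-0.95 to 0.92). Of the 1402 tissue barcodes, 601 belonged to a cluster led by the secretory products Dcpp1 to Dcpp3 and Bpifa2 and 308 to one led by haemoglobin genes, and 76 and 66 to a pair of endothelial-like clusters. Their part in the low tissue levels was not tested.

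Within each family the stratified-type member can be set against its simple-epithelium partner in the same library, which removes the scaling. Dsg3 made up 86.1% (84.5 to 87.6) of the UMIs of Dsg3 and Dsg2 in control 7-day mSGOs, 82.5% (81.1 to 83.8) with photons, 79.8% (78.2 to 81.4) with protons and 54.5% (53.0 to 55.9) at day 11. In tissue it was 0 of 117 UMIs, an upper bound of 3.10%. Over all kept barcodes the intervals of the 5 libraries overlapped only between photons and protons. Among Malat1-rich barcodes the shares were 87.9% (86.1 to 89.6) in control, 85.9% (84.1 to 87.5) with photons and 81.8% (79.6 to 83.8) with protons. There control and photons overlapped, as they did in barcodes under 1% Malat1 on either side of 2000 UMIs. Over all kept barcodes, Pkp1 made up 98.2% of Pkp1 and Pkp2 in control, 98.4% with photons and 98.3% with protons. At day 11 it made up 88.6% (87.6 to 89.6). In tissue it made up 37.5% (18.8 to 59.4), from 9 and 15 UMIs, and ran from 14.3% to 100% across 10 processing settings. The 3 libraries of day 7 did not differ in this share beyond counting error.

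The desmocollins did not follow that order. Dsc3 made up 48.4% (46.6 to 50.1) of Dsc3 and Dsc2 in control 7-day mSGOs and 49.7% (48.6 to 50.9) at day 11, with overlapping intervals. It was 55.2% (53.9 to 56.6) with photons and 53.9% (52.5 to 55.2) with protons, both above control. In tissue it was 23.8% (8.22 to 47.2), from 5 and 16 UMIs, and ran from 10.8% to 100% across 10 processing settings. Over all kept barcodes the Dsc3 share was thus higher in the irradiated libraries while the Dsg3 share was lower. Whether the difference exceeds the spread between replicate cultures cannot be seen from 1 library each.

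**Figure D3:**
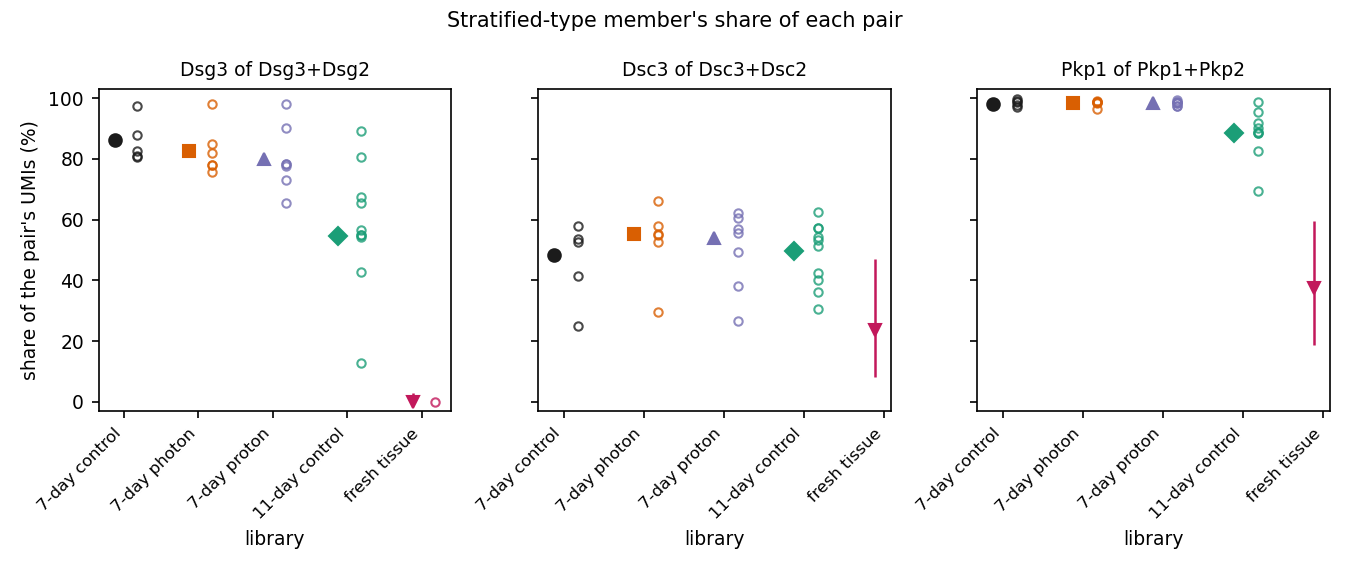
Share of the UMIs of each pair (y axis, %) that came from the stratified-type member, by library (x axis); filled markers are whole libraries with 95% exact binomial intervals and open circles are clusters with at least 20 UMIs of the pair. The Dsg3 share steps down from 7-day to 11-day mSGOs and is 0 in tissue, whereas the Dsc3 share of whole organoid libraries lies between 48.4% and 55.2%, with squamous-like clusters as low as 25.0%.

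Per barcode, the members were detected in a graded way. With each barcode thinned to 500 UMIs, Dsp was found in 22.8% of control 7-day barcodes, 20.2% with photons, 18.6% with protons, 16.4% at day 11 and 1.00% in tissue. At least 1 of the 9 genes was found in 46.8%, 44.3%, 42.8%, 38.3% and 2.996%. Before thinning the last shares were 74.9%, 71.7%, 68.6%, 91.1% and 16.05%, at median depths of 899, 1064, 966, 3026.5 and 2378.5 UMIs. Thinned shares for Pkp1 were 10.6%, 9.91%, 9.95%, 4.79% and 0.143%, and for Jup 9.05%, 8.29%, 7.84%, 4.86% and 1.07%. Of the endothelial-like tissue barcodes, which should lack desmosomes, none had a thinned UMI of Dsp among 66 and 76 barcodes with median depths of 3445 and 2012 UMIs, with exact upper bounds of 5.44% and 4.74%. The thinned tissue share of Dsp is below these limits and cannot be told from background at this depth. Without thinning, Dsp summed to 90.6 CPM (72.0 to 112) in an unnamed cluster of 87 tissue barcodes. The endothelial-like clusters were at 4.30 and 6.28 CPM, with upper bounds of 24.0 and 35.0. No organoid cluster was available that should lack desmosomes.

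Most 7-day barcodes held little Malat1, and the members did not behave alike across this divide. In control 7-day mSGOs, 1040 barcodes had a Malat1 share of at least 1%, 1043 were below 1% with at least 2000 UMIs, and 4411 were below both limits. Dsp was at 748 CPM in the first class, 136 in the second and 598 in the third. Jup, its partner in the plaque, was at 229, 269 and 162 CPM. Dsp was thus lower in the RNA-rich, Malat1-poor barcodes and Jup was not.

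The ratio of the Malat1-poor barcodes with at least 2000 UMIs to the Malat1-rich ones was -2.45 (log2) for Dsp and -2.28 for Dsg3 in control. It was -1.75 and -2.03 with photons, and -1.94 and -2.15 with protons. Dsc2, Dsc3 and Dsg2 lay between -1.07 and -1.64 in the 3 libraries, so that the 4 cadherins and Dsp were all lower by more than 1. In these comparisons 33% of genes were lower by 1 and 0.36% higher in control, 31% and 0.208% with photons, and 28.3% and 0.295% with protons. Jup, at 0.23 in control, 0.46 with photons and 0.32 with protons, and Pkp3, at 0.22, 0.23 and 0.25, lay on the other side of 0, each interval above 0. Pkp1 was at -0.75 (-0.88 to -0.63) in control, below the median gene at -0.33, and at -0.35 and -0.28 with photons and protons, where the median gene was at -0.32 and -0.25. The classes were defined by Malat1 and depth, not by these genes, and what separates them was not tested.

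**Figure D4:**
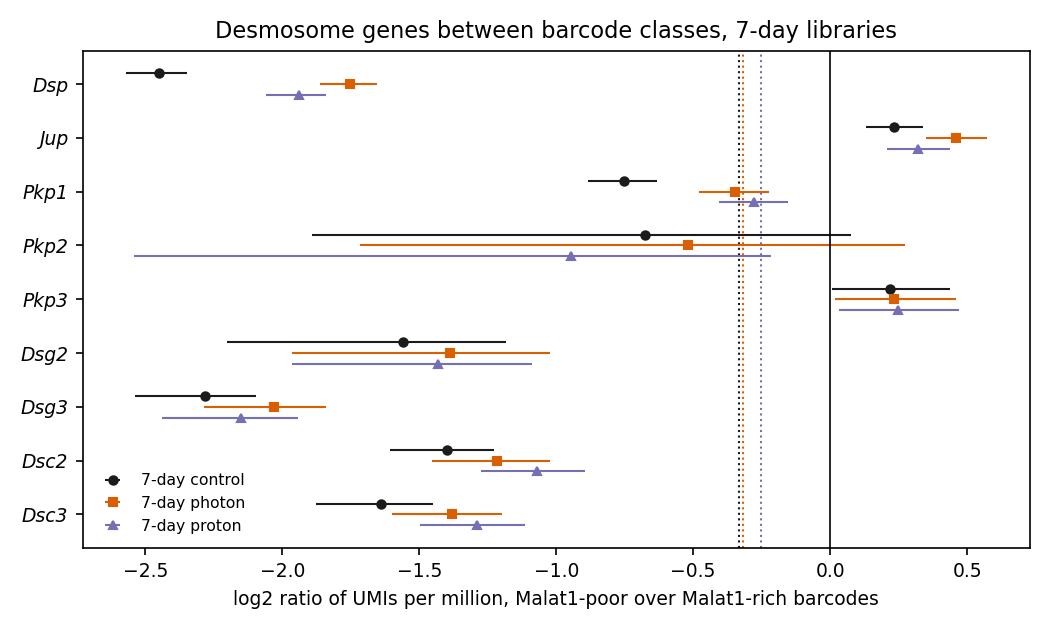
Log2 ratio of CPM (x axis) between Malat1-poor barcodes of at least 2000 UMIs and Malat1-rich barcodes for each desmosome gene (y axis) in the 3 libraries of day 7, with 95% counting intervals; dotted lines are the medians of all tested genes. Dsp and the 4 cadherins lie left of -1 in all libraries, and Jup and Pkp3 lie right of 0.

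Each library was clustered with the 9 genes and the related gene lists left out, which gave 34 clusters of at least 50 barcodes. Cluster values are a description without a test. In each 7-day library the highest summed level was in a cornifying squamous-like cluster, with Sprr1a, a small proline-rich envelope gene, among its 10 leading genes in all 3 libraries. It held 83 barcodes in control, 95 with photons and 61 with protons. The 9 genes together reached 4283, 3188 and 3532 CPM there, against 1326, 1199 and 1139.7 CPM over the whole libraries. Dsp was at 1858 CPM (1758 to 1962) in control, 1333 (1257 to 1413) with photons and 1505 (1408 to 1606) with protons. The control cluster lay above both irradiated clusters for this gene, with intervals that did not overlap.

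Not every member was high in these squamous-like barcodes. Dsg3 was at 598 CPM in control, 500.1 with photons and 523 with protons, and Dsc2 was at 547, 355 and 507 CPM. Dsg2, by contrast, was at 15.8, 10.5 and 10.0 CPM and Pkp2 at 1.44 to 3.51 CPM, from 1 to 3 UMIs. Dsg3 therefore made up 97.4%, 97.9% and 98.1% of the desmoglein pair. The Dsc3 share of the desmocollin pair was 25.0%, 29.7% and 26.7%, the lowest of any cluster in each of these libraries. In 11-day mSGOs the squamous-like cluster of 265 barcodes showed the same low Dsc3 share, 30.7%, with Dsg3 at 188 CPM and Dsc2 at 195, but its Dsp level, 319 CPM, was below the 372 CPM of the whole library.

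In 11-day mSGOs the duct-like cluster, 393 barcodes led by kallikrein genes such as Klk1 and Klk1b11, had another make-up. Dsg2 was at 105 CPM (90.7 to 121) and Pkp2 at 48.9 CPM (39.3 to 60.2), the highest of any cluster of the 5 libraries, while Dsg3 was at 15.4 CPM (10.2 to 22.3). Dsg3 made up 12.8% of the desmoglein pair and Pkp1 69.4% of the plakophilin pair, the lowest shares of the 11-day clusters. The duct-like name was not given at the coarsest of 3 clustering resolutions. The myoepithelial-like cluster of 302 barcodes had Dsc2 at 42.2 CPM and Pkp2 at 1.14 CPM from 1 UMI, with Dsp at 381 CPM. The cycling-like cluster of 129 barcodes had a summed level of 782 CPM, the lowest of the 11-day clusters, and Dsp at 276 CPM.

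Tissue clusters were sparse. A cluster of 87 barcodes led by Fam13a, Smgc and Ptn, which stayed unnamed, held 198 of the 425 UMIs of the 9 genes in tissue. There Dsg2 was at 79.5 CPM (62.2 to 100.2), Dsp at 90.6 CPM (72.0 to 112) and Pkp2 at 7.73 CPM, and Dsg3 had 0 UMIs. Dsg3 had 0 UMIs in the other tissue clusters too. The cluster of 128 barcodes led by kallikreins had Dsg2 at 24.1 CPM and Dsp at 21.4 CPM, on 9 and 8 UMIs. In the endothelial-like cluster of 66 barcodes Jup was at 125 CPM (83.6 to 179) and Dsp at 4.30 CPM, from 29 UMIs and 1 UMI. In the endothelial-like cluster of 76 barcodes Jup was at 31.4 CPM and Dsp at 6.28 CPM, on 5 UMIs and 1 UMI, with intervals that overlapped. The whole tissue library held 105 Jup UMIs.

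**Figure D5:**
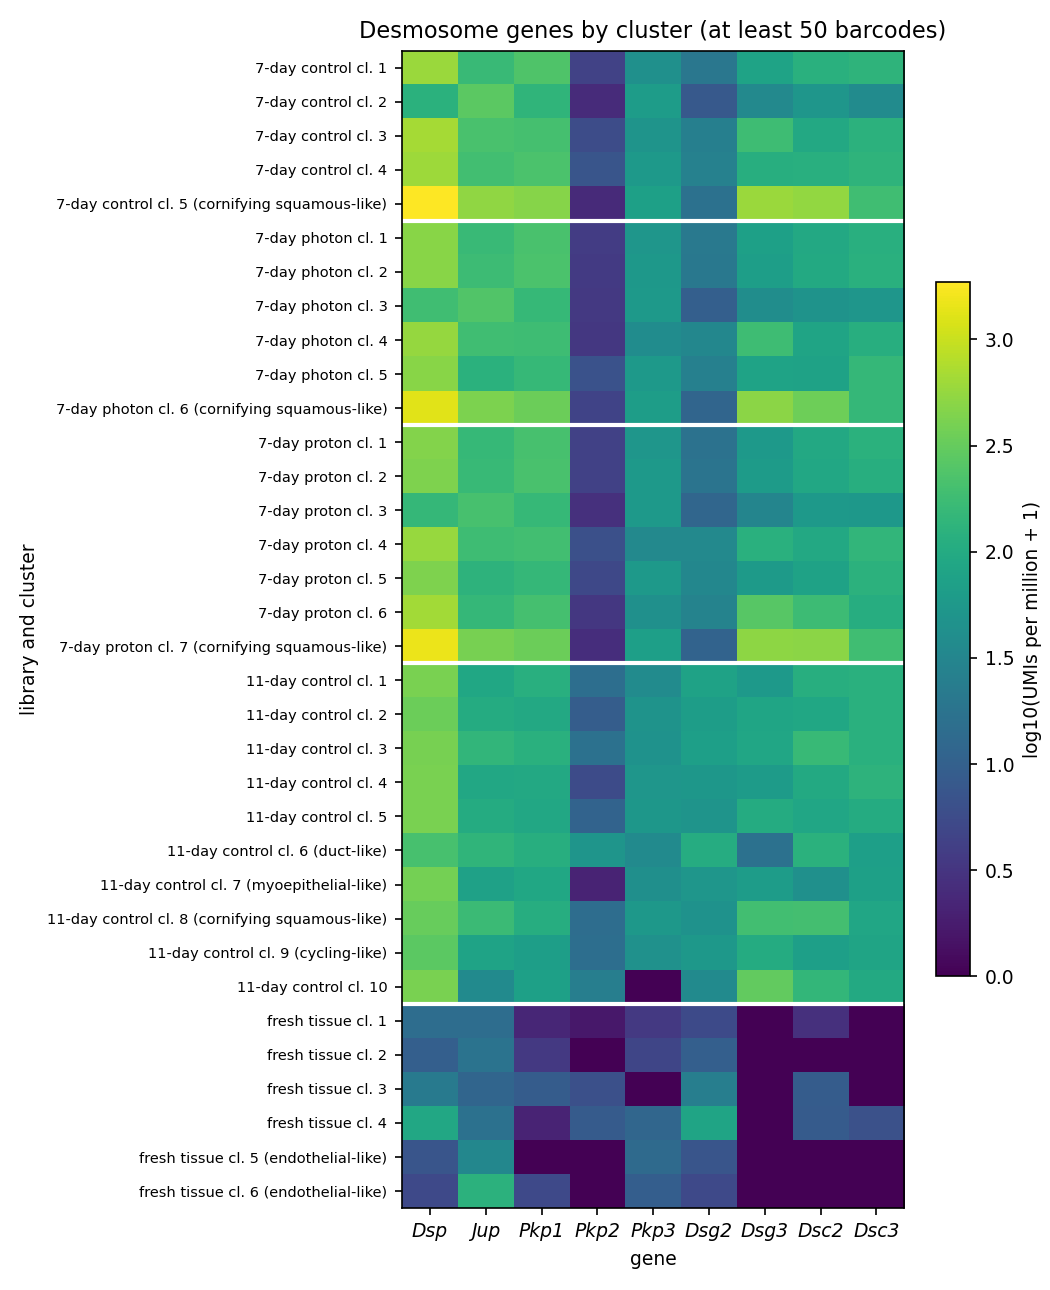
Level of each desmosome gene (x axis) in each cluster of at least 50 barcodes (y axis, grouped by library with white lines), coloured by log10 of CPM plus 1. The brightest rows are the cornifying squamous-like clusters of the 7-day libraries, Dsg2 is brighter in 11-day than in 7-day rows, as is Pkp2 in most 11-day rows but not in cluster 4 or the myoepithelial-like cluster 7, and Dsg3 is at 0 in all tissue rows.

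Across the 28 organoid clusters, log2 levels of Dsg3, Dsc2, Dsc3 and Dsp varied together, with Pearson's r of 0.61 to 0.88 for the 6 pairs. Dsg2 varied with Pkp2 (r = 0.74) and against Jup (r = -0.68) and Pkp1 (r = -0.66). Jup varied with Pkp1 (r = 0.85). These clusters share libraries and differ in depth, so the values describe the pattern only. Across all 34 clusters, the genes most like the summed members among 7176 compared were Prrg4 (r = 0.97), Npepps, Net1, Vps37b and Rab10. Those most like the sum of Dsg3, Dsc3 and Pkp1 were Prrg4 (r = 0.98), Klf5, Ybx3, Kcmf1 and Areg, and those most like the sum of Dsg2, Dsc2 and Pkp2 were Ehf (r = 0.95), Mal2, Sgpl1, Baiap2l1 and Kif21a. The difference between organoids and tissue enters all of these correlations.

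The members can be set beside neighbouring junction and keratin genes from lists drawn up by gene function. With photons and protons, the 5 tested genes of 11 other desmosomal and cornified envelope anchors had medians of 0.13 and 0.11 and none passed 0.5. Ppl, the envelope anchor periplakin, was at 0.36 and 0.26. The 10 adherens junction genes had medians of -0.0026 and 0.04, again with none past 0.5. Among the 7 stratified-type keratins Krt15 was higher by 1.11 with photons and 1.07 with protons, and among 4 simple-type keratins Krt19 was higher by 0.52 with protons. The members' medians were -0.13 and -0.20.

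At day 11, 7 of the 10 adherens junction genes were higher by a log2 ratio of at least 1 and 2 lower, with a median of 1.39, where 48.8% of all tested genes were higher and 5.83% lower. Vcl, which links cadherin complexes to actin, was at 2.81, Cdh3 (P-cadherin) at 2.20 and Ctnnd1 (p120-catenin) at 2.04. Of 7 stratified-type keratins 4 were lower by 1 and none higher, with a median of -1.84, and Krt16, Krt6b and Krt6a were at -4.55, -4.39 and -3.79. The 4 simple-type keratins had a median of 0.09. Among other desmosomal anchors Pkp4 was at 4.02 and Perp, a desmosomal membrane protein, at -2.51. In tissue all 10 adherens junction genes, all 7 stratified-type keratins and all 4 simple-type keratins were lower than in 7-day mSGOs by 1. In that comparison 78.3% of all tested genes were lower. The medians were -2.46, -9.54 and -3.34, beside -4.88 for the 7 tested members and -4.47 for all 9.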

How the data were processed

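Droplet libraries were made with the 10x 3′ kit. The values used are the raw UMI counts per gene and barcode that the authors deposited. The submitters' processing notes name Cell Ranger version 5 and build mm10, the matrix headers give software 3.0.1 for the 7-day and tissue libraries and 7.0.0 for the 11-day library, and the study's methods name GRCm39. Deposited barcodes all held at least 500 UMIs.

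Barcodes with at least 200 genes and at most 5% mitochondrial UMIs were kept. Scrublet (scanpy 1.11.5) doublets were removed, by the expected rate of the highest scores in 4 libraries where its own threshold called too few. The study states limits of 5% mitochondrial counts and 2500 features. Keeping barcodes of at least 2500 genes would leave 199, 249, 219, 848 and 26 barcodes, for control, photon, proton, 11-day and tissue, and both sides of that limit were tried as alternatives. UMIs were summed per library and scaled to the library total. Log2 ratios used a pseudocount of 1 CPM, and a fold threshold of 0.5 (7-day libraries) or 1 (other comparisons). Intervals are exact Poisson for levels, conditional binomial for ratios and Clopper-Pearson for shares, at 95%. Ratio intervals use the counts without the pseudocount, so they are not centred on the ratio where a level is low. A count of 0 was bounded by 3 UMIs per library. Clustering used 2000 variable genes, 30 principal components, 15 neighbours and Leiden (leidenalg 0.10.2, best of 10 starts) at resolution 0.8. A cluster was named from at least 3 marker genes raised 2-fold with 1 of them among its 10 leading genes, and clusters led by haemoglobin genes stayed unnamed, a rule set after seeing the data, as was the comparison of Malat1 classes. Scripts were tested on simulated data.

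Named genes are all 9 members, and at most the 3 highest and 3 lowest of each other list. The members and lists were chosen with earlier results of these data known. Gene positions and promoters come from RefSeq (GRCm38.p6).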

Additional observations from a re-analysis of the deposited data

Results flagged for a closer look

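Barcodes left out by the filters also held desmosome transcripts. In barcodes with over 5% mitochondrial UMIs, the 9 genes summed to 2207 CPM (2081 to 2340) in control 7-day mSGOs, 1840 CPM (1780 to 1901) with photons and 1706 CPM (1645 to 1769) with protons, from 279, 905 and 751 barcodes. Each of these exceeded the level in the kept barcodes of its library. The same class reached 1067 CPM (1036 to 1098) in 3927 barcodes of the 11-day library, against 1006 CPM (995 to 1017) in kept barcodes. In tissue it reached 229 CPM (210 to 249) in 532 barcodes, against 71.7 CPM (65.1 to 78.9) in kept barcodes. The low tissue level thus depends in size on the mitochondrial filter. The 11597 tissue barcodes with fewer than 200 genes held 44.8 CPM (41.0 to 48.8). All 6 values lie above the limit that a count of 0 allows, and the cause was not tested.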

How the results depend on the processing

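No paired analysis was possible because each group held 1 library, and no replicate could be left out. With barcodes of at least 1% Malat1, 4 members were lower at day 11 than at day 7 (1 as reported) and 2, Dsg2 and the untested Pkp2, were higher in tissue than at day 7 (0 as reported), and 6 rather than 9 were higher at day 11 than in tissue, where the log2 ratio was -0.091 for Pkp2, 0.09 for Dsg2 and 0.82 for Jup. With barcodes of at least 2500 genes, 2 members were lower by 0.5 with photons, Jup and the untested Pkp2, and 1 with protons (0 as reported). With median-of-ratios size factors, 2 were lower with protons, 0 higher and 5 lower at day 11 than day 7 (2 and 1 as reported, Pkp2 included), 1 higher in tissue than at day 7, and 5 higher at day 11 than in tissue (9 as reported), where the Dsg2 log2 ratio was -0.82 and that of Pkp2 -0.15. A pseudocount of 10 CPM left 1 member higher at day 11 than day 7. Thinning each barcode to 500 UMIs gave 1 lower with protons, Dsg3. Over all tested genes, size factors gave 3.82% lower with protons, 21.3% higher and 23.4% lower at day 11 than day 7, 27.2% higher in tissue than at day 7, and 19.1% higher at day 11 than in tissue. At 2500 genes or more the share was 2.49% lower with photons and 3.10% with protons. It was 40.5% higher at day 11 than day 7 with 10 CPM, and 2.42% lower with protons after thinning. Among barcodes of at least 1% Malat1, 5.80% were lower at day 11 than day 7. In those barcodes 9.44% were higher in tissue than at day 7, and 43.7% higher at day 11 than in tissue. The causes were not tested, apart from the common shift that the size factors apply to all genes. The photon squamous-like cluster was not separated at Leiden resolution 0.4. With 5 to 29 tissue UMIs for Dsc2, Dsc3, Pkp1, Pkp2 and Pkp3, tissue ratios of these genes are limited by depth.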
